A study of Mus musculus with 24 samples.

Results

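AU-rich element (ARE) binding proteins recognize stretches rich in A and U in the 3′ untranslated regions (UTRs) of short-lived mRNAs. Zfp36, Zfp36l1 and Zfp36l2 encode tandem zinc-finger proteins that recruit the deadenylation machinery and so direct their targets to degradation. Other binders act in other ways, since Elavl1 (HuR) mostly stabilizes its targets, Hnrnpd (AUF1) and Khsrp (KSRP) mostly promote decay, and Tia1 and Tial1 (TIAR) repress translation. Rc3h1 (roquin) and Zc3h12a (regnase) bind stem-loops in many inflammatory mRNAs, and Zc3h12a cuts them. In immune cells several of these proteins share targets, among them the mRNA for TNF.

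These 10 genes (Zfp36, Zfp36l1, Zfp36l2, Elavl1, Hnrnpd, Khsrp, Tia1, Tial1, Rc3h1 and Zc3h12a) were taken by symbol from the 55376 genes counted in bulk mRNA-seq of 24 mouse libraries. The mutant mice carried TTPΔARE, an allele from which an AU-rich stretch in the 3′ UTR of Zfp36, the gene of the protein TTP, has been removed, so that the mRNA is more stable. The question was whether raised Zfp36 mRNA was accompanied by a change in the other binders. The allele is in the germline and was homozygous, so marrow cells other than the sorted ones carry it too. The mice were male and untreated, controls were wild-type (WT) littermates, and the labels spell the mutant genotype both TTPdeltaARE (in titles) and TPPdeltaARE (in the genotype field).

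Hematopoietic stem cells (HSCs, sorted as LSK CD34- Flk2- CD150+) came from young mice (Y-WT, 4 libraries, and Y-TTPΔARE, 4 libraries) and from middle-aged mice (M-WT, 5 libraries, and M-TTPΔARE, 3 libraries). Multipotent progenitor 3 (MPP3) cells, a myeloid-biased progenitor just below the HSC, came from young mice only (Y-WT, 4 libraries, and Y-TTPΔARE, 4 libraries). The ages and the cell types were numbered as separate sets of libraries, so age or cell type cannot be told apart from the library set, whereas both genotypes lie within a set. The libraries held between 24261371 and 39934554 counts, and every member had at least 203 counts in every library. Levels are in CPM, a gene's counts relative to the total of its library, scaled by the trimmed mean of M values (TMM) over all 24 libraries. In bulk samples, fewer cells of a type and less RNA per cell cannot be told apart.

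The labels of cell type held against defining genes except Hlf. Slamf1 (CD150, itself used in the HSC sort) stood at 57.6 ± 3.03 CPM (SD, n = 4) in Y-WT HSCs and at 2.35 ± 1.22 CPM (n = 4) in Y-WT MPP3 cells. Mpo, a myeloid granule enzyme, stood at 3.56 ± 2.25 and 658 ± 398 CPM. In the same order Procr had 160 ± 33.7 and 80.6 ± 15.9 CPM, Fgd5 71.0 ± 13.3 and 33.1 ± 5.69 CPM, and Cd48 9.51 ± 2.74 and 164 ± 63.9 CPM. Hlf, an HSC gene, overlapped between the cell types (446 ± 21.2 and 416 ± 59.6 CPM). Some libraries stood apart from their groups. Y-TTPΔARE MPP3 replicate 4 had the lowest TMM factor (0.731, against 0.846 to 1.15 in the others), and its 6 T and NK cell genes summed to 636 CPM, against 230.2 to 339 CPM in the other MPP3 libraries. Y-WT HSC replicate 1 had 61.4 CPM summed over 1971 olfactory and vomeronasal receptor genes, against 597 to 983 CPM in the other Y-WT HSC libraries. Y-TTPΔARE HSC replicate 1 was low in its group too (75.0 CPM, against 338 to 404 CPM). Y-WT HSC replicate 1 thus differed from the rest of its group and lay among the other groups. Several results are also given without Y-TTPΔARE MPP3 replicate 4 or without Y-WT HSC replicate 1.

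The AU-rich stretches of Zfp36 can be read from its annotated mRNA. In GRCm38 (chromosome 7, 28376784 to 28380253, minus strand), the 3′ UTR had 774 bases and held the pentamer ATTTA 3 times, each time inside the longer core TATTTAT. The 3 cores began at UTR bases 575, 590 and 615. They are shown because they are the only such cores in this UTR. Their DNA is printed 5′ to 3′ in the sense of the mRNA, with the core in capitals.

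Zfp36 site 1, chr7:28376966-28376994: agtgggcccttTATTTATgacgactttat
Zfp36 site 2, chr7:28376951-28376979: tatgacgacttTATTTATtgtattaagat
Zfp36 site 3, chr7:28376926-28376954: agattttatagTATTTATatatattgggt

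Which of these sites the allele lacks was not given in the sources used here, and TTPΔARE libraries can give no reads from the removed bases. Of 21037 genes with an annotated 3′ UTR, 3.76% held 3 or more copies of TATTTAT and 62.9% held at least 1 ATTTA (sense strand only, overlapping matches counted, and each TATTTAT counted also as an ATTTA). The other members of the family matched Zfp36 in the longer core. Zfp36l1 held 9 ATTTA and 3 TATTTAT in 1835 bases, and Zfp36l2 held 5 and 3 in 1822 bases. The 3 cores of Zfp36l2, the most abundant mRNA of the family, began at UTR bases 822, 870 and 1056 and are shown for comparison.

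Zfp36l2 site 1, minus strand, chr17:84184914-84184942: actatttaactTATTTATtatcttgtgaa
Zfp36l2 site 2, minus strand, chr17:84184866-84184894: tgtccatactgTATTTATcgagtatgatg
Zfp36l2 site 3, minus strand, chr17:84184680-84184708: attgtatgtaaTATTTATttcattaattt

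The remaining binders ranged widely. Elavl1 held 17 ATTTA and 8 TATTTAT in 4218 bases, a count of the longer core that 0.162% of genes reached, and all 8 began between UTR bases 3795 and 3841. At the other end, Khsrp held 1 ATTTA and no TATTTAT in 1642 bases. Hnrnpd held 10 ATTTA and no TATTTAT, Tia1 8 and 1, Tial1 3 and 1, Rc3h1 20 and 2, and Zc3h12a 3 and none. A core from the Elavl1 cluster and the single Khsrp pentamer show these extremes. A match is a run of letters and not a site shown to be bound.

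Elavl1, minus strand, chr8:4285784-4285812: tgaaaattattTATTTATttatttatttt
Khsrp, minus strand, chr17:57021586-57021614: aaaatagcaagaATTTAacctctgccccg

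Zfp36 mRNA had higher means in TTPΔARE cells in all 3 settings. In young HSCs the 4 Y-WT libraries had 69.2, 32.5, 34.8 and 53.5 CPM (47.5 ± 17.3, SD), and the 4 Y-TTPΔARE libraries had 105, 92.4, 85.4 and 96.2 CPM (94.9 ± 8.31). Every Y-TTPΔARE library lay above every Y-WT library, and the WT libraries were the more scattered. The genotypes also did not overlap for 8.35% of the genes over the limit of mean log2 CPM given below. The log2 fold change was 0.96 (SE 0.21, 95% interval 0.48 to 1.43), with an adjusted p of 0.238 by edgeR's quasi-likelihood test over 24381 genes, so the gene did not pass. A two-sided exact permutation test of the CPM gave p = 0.0286, the smallest that 4 against 4 libraries allow. Genes were called with the limits of the study, which were 0.05 for the adjusted p, 1.2 for the fold change and 1.5 for the mean log2 CPM.

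In this comparison 6 genes (0.0246%) were called, and none of the 10 binders was. With edgeR and the same limits, the study reported far more genes in young HSCs, with Zfp36 among those raised. Which edgeR test it used was not stated. At an unadjusted p under 0.05 stood Zfp36 and Zfp36l2, against 7.38% of all genes tested. Without Y-WT HSC replicate 1, the WT library with the highest Zfp36, the log2 fold change of Zfp36 was 1.27 and its edgeR quasi-likelihood adjusted p 0.0419. With each of the 8 libraries left out in turn it ran from 0.82 to 1.27 (adjusted p 0.0419 to 0.620), and leaving out any other library gave no call. Zfp36 was also called with the likelihood ratio test (adjusted p 0.0130), with DESeq2 (7.4e-04) and with no filter on low counts (0.0348).

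In middle-aged HSCs the 5 M-WT libraries had 45.7, 49.6, 41.6, 53.5 and 60.4 CPM of Zfp36, and the 3 M-TTPΔARE libraries had 95.03, 104 and 106 CPM. The groups did not overlap, as for 13.8% of the genes over the limit of mean log2 CPM. The mRNA rose from 50.2 ± 7.22 to 102 ± 5.80 CPM (log2 fold change 0.97, SE 0.11, edgeR quasi-likelihood adjusted p 0.00200). Zfp36 was 1 of 298 genes called among 21136 tested (1.41%). The interaction of genotype and age was -0.03 on the log2 scale (95% interval -0.60 to 0.53, adjusted p 0.956), and -0.35 (adjusted p 0.278) without Y-WT HSC replicate 1. The median of this interaction over all genes was -0.11 and, without that library, -0.22.

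In MPP3 cells the 4 Y-WT libraries had 38.4, 20.5, 28.9 and 30.0 CPM of Zfp36, and the 4 Y-TTPΔARE libraries had 116, 97.4, 81.7 and 124 CPM. The groups lay far apart. They did not overlap, which also held for 12.3% of the genes over the limit of mean log2 CPM. The mRNA rose from 29.5 ± 7.32 to 105 ± 19.2 CPM, a log2 fold change of 1.80 (SE 0.18, edgeR quasi-likelihood adjusted p 6.5e-04). It was 1 of 326 genes called among 19023 tested (1.71%). Without replicate 4 of the Y-TTPΔARE group, the log2 fold change was 1.77 (adjusted p 0.00257).

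The WT mean was lower in MPP3 cells than in HSCs, whereas the TTPΔARE means of the 3 settings were 94.9, 102 and 105 CPM. The interaction of genotype and cell type was 0.77 (95% interval 0.04 to 1.495, edgeR quasi-likelihood p 0.0403 unadjusted and 0.430 adjusted), so a larger effect in MPP3 cells did not pass. Without Y-WT HSC replicate 1 it was 0.57. Gm44710, a gene annotated on the strand opposite to Zfp36, was counted at 5.53% to 19.9% of the level of Zfp36 in the 6 groups, and whether counting used the strand was not stated.

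**Figure D1:**
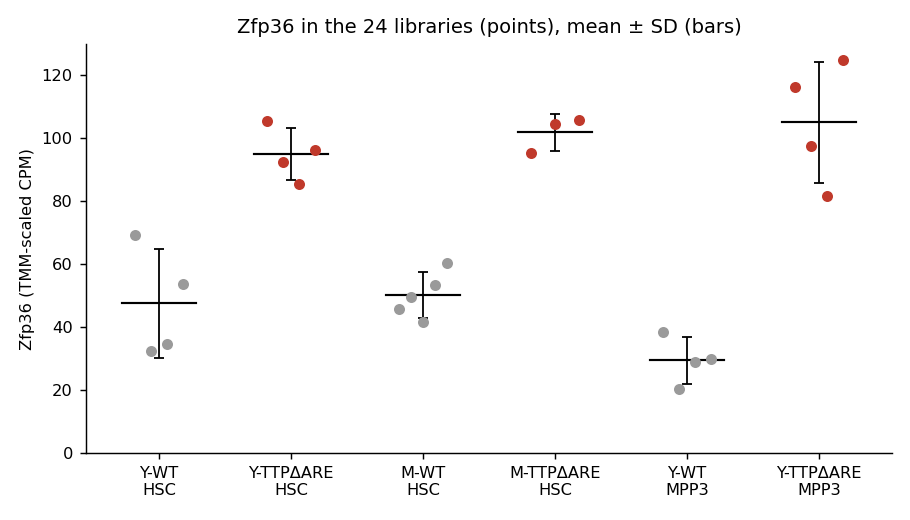
Zfp36 in TMM-scaled CPM (vertical axis, from 0) in the 24 libraries by group (horizontal axis). Points are libraries (grey WT, red TTPΔARE), bars are the mean ± SD. Red and grey points do not overlap within any age and cell type, and the red groups have means of 94.9, 102 and 105 CPM.

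Zfp36 is itself an immediate early gene, induced within minutes by many stimuli, so 9 genes of that class (Fos, Fosb, Jun, Junb, Egr1, Ier2, Nr4a1, Dusp1 and Atf3) were read beside it. Their summed CPM was 306 ± 76.5 in Y-WT and 297 ± 65.3 in Y-TTPΔARE HSCs, 361 ± 118 in M-WT and 415 ± 37.4 in M-TTPΔARE HSCs, and 233 ± 46.2 in Y-WT and 248 ± 42.7 in Y-TTPΔARE MPP3 cells. The libraries overlapped in each pair, and the median log2 fold change of the 9 genes was -0.33 in young HSCs, 0.25 in middle-aged HSCs and 0.22 in MPP3 cells. In middle-aged HSCs the overlap came from M-WT replicate 5 alone (565 CPM). The other M-WT libraries had 284 to 358 CPM and the M-TTPΔARE libraries 376 to 450 CPM. M-WT replicate 5 also had the most Zfp36 of its group (60.4 CPM). Y-WT HSC replicate 1, with the most Zfp36 of its group, also had the highest sum of its group (421 CPM, against 262 to 273 CPM). Replicate 1 had the highest sum in the other young groups too. These sums were 370 CPM in Y-TTPΔARE HSCs, 301 CPM in Y-WT MPP3 cells and 294 CPM in Y-TTPΔARE MPP3 cells. It had the most Zfp36 of its group in Y-TTPΔARE HSCs and Y-WT MPP3 cells, but not in Y-TTPΔARE MPP3 cells. Over the 24 libraries, deviations from the group means in log2 CPM were correlated with those of Zfp36. Pearson's r was 0.78 for Dusp1, 0.67 for Junb, 0.54 for Ier2, 0.51 for Jun, 0.46 for Egr1 and 0.30 for Fos. This is a description over libraries that share library sets, and Fosb, Nr4a1 and Atf3 were not included.

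No other binder passed the test in any of the 3 genotype comparisons. In young HSCs the log2 fold changes of the 9 others lay between -0.13 and 0.21, in middle-aged HSCs between -0.17 and 0.13, and in MPP3 cells between -0.32 and 0.25. The smallest adjusted p values by edgeR's quasi-likelihood test were 0.630, 0.0989 and 0.453. At an unadjusted p under 0.05 stood 1, 3 and 0 of the 9, against 7.38%, 16.0% and 12.1% of all genes tested, and neither DESeq2 nor the likelihood ratio test called any of them. The 95% intervals of the 9 genes ran from -0.52 to 0.40 in young HSCs, from -0.32 to 0.44 in middle-aged HSCs and from -0.66 to 0.61 in MPP3 cells. Each interval thus lay within a log2 change of 1 in either direction. In middle-aged HSCs those of Zfp36l2, Elavl1 and Khsrp lay below 0, although none of these genes passed after adjustment.

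**Figure D2:**
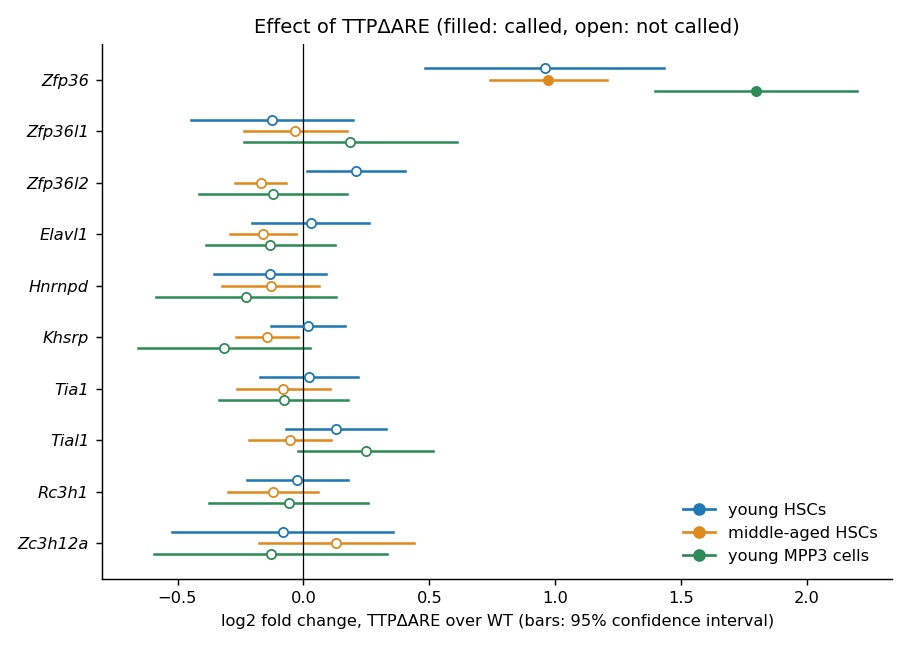
Log2 fold change of TTPΔARE over WT (horizontal axis) for the 10 binders (vertical axis) in young HSCs (blue), middle-aged HSCs (orange) and young MPP3 cells (green). Points are edgeR estimates, filled where the gene was called, and bars are 95% confidence intervals. Zfp36 lies between 0.96 and 1.80, and the other 9 between -0.32 and 0.25.

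Within the family, Zfp36l2 was by far the most abundant mRNA. In young HSCs its CPM were 628, 574, 580.4 and 616 in Y-WT and 776, 768, 657 and 652 in Y-TTPΔARE libraries. The groups did not overlap, which held for 8.35% of the genes over the limit of mean log2 CPM, and the log2 fold change was 0.21 (95% interval 0.01 to 0.40, edgeR quasi-likelihood adjusted p 0.630). Over all genes the median was 0.03. Without Y-WT HSC replicate 1 the log2 fold change was 0.31 (adjusted p 0.130) and the median over all genes 0.14. In middle-aged HSCs the order of the means was the opposite. There the CPM were 762, 816, 818, 799 and 832 in M-WT and 723, 774 and 723 in M-TTPΔARE libraries, which overlapped, with a log2 fold change of -0.17 (interval -0.27 to -0.07, adjusted p 0.0989).

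The interaction of genotype and age for Zfp36l2 was -0.43 (95% interval -0.66 to -0.20, edgeR quasi-likelihood p 9.6e-04 unadjusted and 0.221 adjusted), beside a median of -0.11 over all genes. DESeq2 called it (-0.37, adjusted p 0.0211), where the median over all genes was -0.05. Without Y-WT HSC replicate 1 it was -0.53 (edgeR quasi-likelihood adjusted p 0.0504), where the median over all genes was -0.22. In MPP3 cells the Y-WT libraries had 685, 579.7, 628 and 685 CPM and the Y-TTPΔARE libraries 605, 662, 568 and 581 CPM, which overlapped (log2 fold change -0.12, adjusted p 0.749).

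Zfp36l1 was scarce, with group means between 17.5 and 22.4 CPM, and overlapped between genotypes in all 3 settings. Its log2 fold changes were -0.13, -0.03 and 0.19. Its value is uncertain, because 54.4% of its 50-base words also lie in other genes, mostly in Gm26669, a lincRNA on the opposite strand. Gm26669 was counted at 49.5% to 56.6% of the level of Zfp36l1 in the 6 groups. In Y-TTPΔARE MPP3 cells replicate 4 alone had 30.8 CPM, against 14.8 to 19.7 CPM in the other 3, and without it the log2 fold change was 0.02.

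As a share of the summed CPM of Zfp36, Zfp36l1 and Zfp36l2, Zfp36 made up 6.99 ± 2.05% in Y-WT and 11.5 ± 0.856% in Y-TTPΔARE HSCs, and 5.73 ± 0.709% in M-WT and 11.8 ± 0.583% in M-TTPΔARE HSCs. In MPP3 cells the share was 4.22 ± 0.744% in Y-WT and 14.3 ± 2.29% in Y-TTPΔARE. Zfp36l2 was the main mRNA of the family in every group. The summed CPM of the family was 669.5 ± 47.9 in Y-WT and 829 ± 75.0 in Y-TTPΔARE HSCs, 874 ± 31.0 and 859.7 ± 32.5 in middle-aged HSCs, and 691 ± 59.4 and 729.5 ± 47.4 in MPP3 cells. The sums did not overlap between genotypes in young HSCs and overlapped in the other settings, and this difference between settings was not tested. The shares compare reads, with no correction for length. The merged exon lengths are similar (3470, 2990 and 3530 bases), but the mean transcript lengths are not (2627.5, 1440.2 and 3530 bases), so they are not shares of mRNA molecules.

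**Figure D3:**
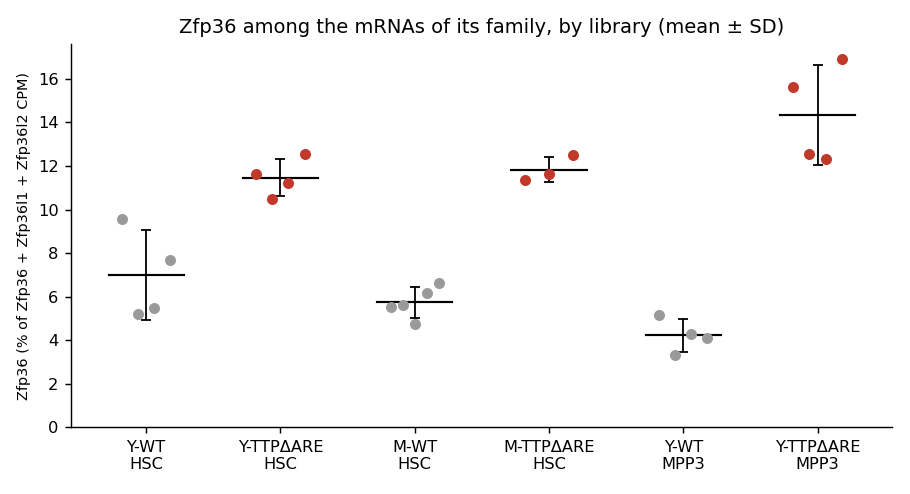
Zfp36 as a percentage of the summed CPM of Zfp36, Zfp36l1 and Zfp36l2 (vertical axis, from 0) in each library (points, grey WT, red TTPΔARE), with the mean ± SD of each group (bars). The share lies between 3.34% and 9.57% in WT libraries and between 10.48% and 16.9% in TTPΔARE libraries.

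Outside the family, Khsrp was the binder whose libraries separated by genotype in MPP3 cells. Its CPM were 189, 222, 211 and 219 in Y-WT and 180.4, 178, 179 and 151 in Y-TTPΔARE MPP3 libraries. The groups did not overlap, as for 12.3% of the genes over the limit of mean log2 CPM, but the log2 fold change of -0.32 had an interval of -0.66 to 0.02 and an adjusted p of 0.453 (edgeR quasi-likelihood). Replicate 4 was the lowest library, and without it the log2 fold change was -0.22 (adjusted p 0.516). Khsrp was called when all 24 libraries were fitted together (-0.29, adjusted p 0.0131). In HSCs Khsrp overlapped between genotypes, with log2 fold changes of 0.02 in young and -0.15 in middle-aged cells.

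The interaction of genotype and cell type for Khsrp was -0.44 (95% interval -0.74 to -0.15, edgeR quasi-likelihood p 0.00544 unadjusted and 0.219 adjusted), where the median over all genes was -0.11. Without Y-TTPΔARE MPP3 replicate 4 it was -0.34 (adjusted p 0.539), and without Y-WT HSC replicate 1 -0.35 (0.605). That of Zfp36l2 was -0.43 (adjusted p 0.320), and without the same libraries -0.37 (0.630) and -0.38 (0.570). None of the 10 binders was called for either interaction by edgeR's quasi-likelihood test, which called 0.0213% (age) and 0.429% (cell type) of the genes tested. At an unadjusted p under 0.05 stood Zfp36l2 and Khsrp for age, against 15.0% of all genes, and Zfp36, Zfp36l2 and Khsrp for cell type, against 10.7%. DESeq2 called Zfp36l2 for age and no binder for cell type, and the likelihood ratio test called none for either.

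Hnrnpd had 178 to 219 CPM in Y-WT and 174 to 205 CPM in Y-TTPΔARE HSCs, 159 to 202 CPM in M-WT and 147 to 182 CPM in M-TTPΔARE HSCs, and 262 to 354 CPM in Y-WT and 238 to 290.0 CPM in Y-TTPΔARE MPP3 cells. It overlapped between genotypes in all 3 settings, with log2 fold changes of -0.13, -0.13 and -0.23 in young HSCs, middle-aged HSCs and MPP3 cells. The stabilizing binder Elavl1 had 165 to 209.9 CPM in Y-WT and 179.7 to 205 CPM in Y-TTPΔARE HSCs, 172 to 208 CPM in M-WT and 171 to 184 CPM in M-TTPΔARE HSCs, and 235 to 290.5 CPM in Y-WT and 214 to 275 CPM in Y-TTPΔARE MPP3 cells. It overlapped too, with 0.03, -0.16 and -0.13. Of the translational repressors, Tia1 had log2 fold changes of 0.02, -0.08 and -0.08, and Tial1 of 0.13, -0.05 and 0.25, each with overlap. The highest Tial1 value of all libraries was 106 CPM in Y-TTPΔARE MPP3 replicate 4, and the log2 fold change in MPP3 cells was 0.15 without it. Rc3h1 had -0.02, -0.12 and -0.06. Zc3h12a, the scarcest member at 6.28 to 12.9 CPM, had -0.08, 0.13 and -0.13.

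**Figure D4:**
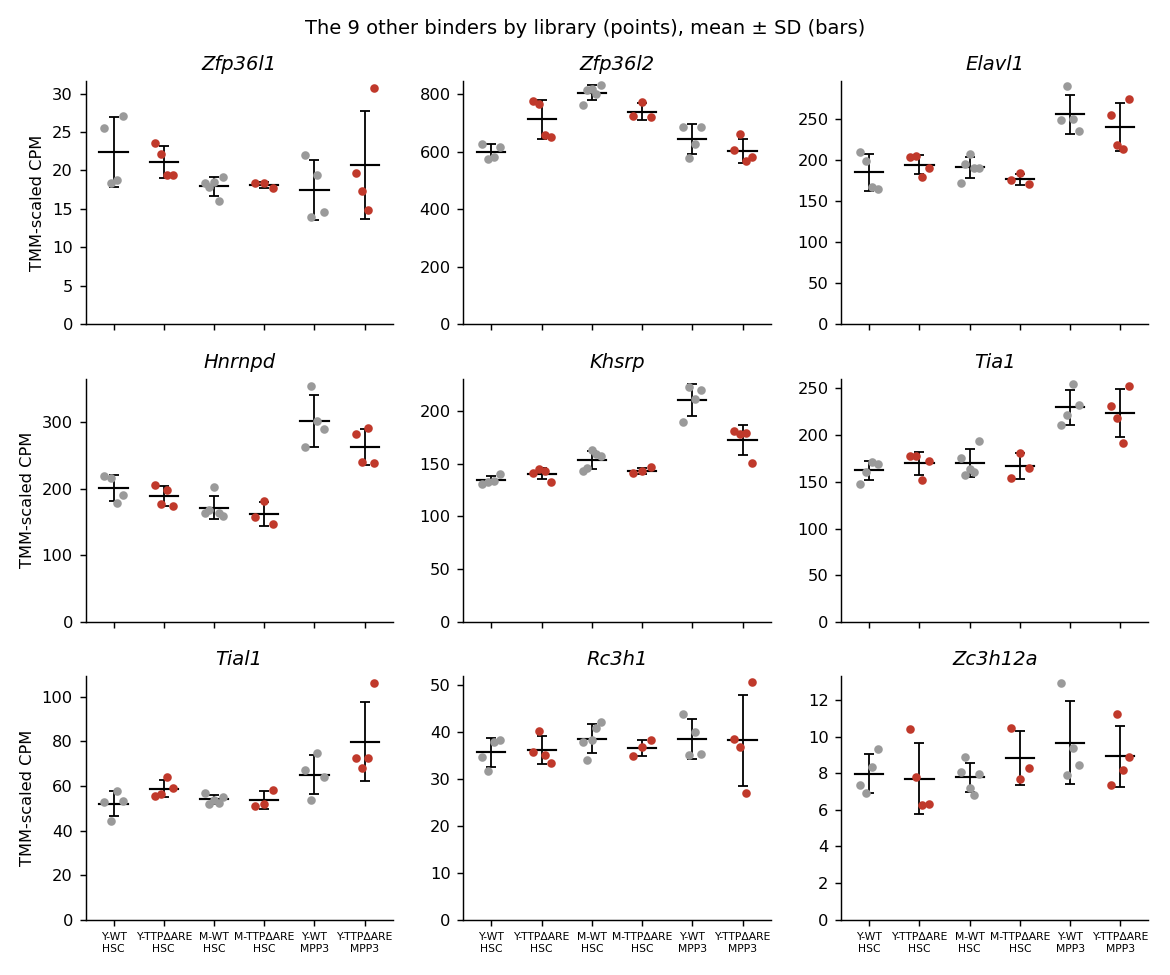
TMM-scaled CPM (vertical axes, from 0) of the 9 other binders in the 24 libraries (points, grey WT, red TTPΔARE) with the mean ± SD of the 6 groups (horizontal axis). Red and grey overlap within each age and cell type apart from Zfp36l2 in young HSCs and Khsrp in MPP3 cells, and Elavl1, Hnrnpd, Khsrp and Tia1 stand higher in Y-WT MPP3 cells than in Y-WT HSCs.

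Between the cell types of young WT mice, 4 of the 10 binders passed as higher in MPP3 cells than in HSCs and none as lower. Of the 22816 genes tested, 14.5% were called higher and 7.69% lower (22.2% in all). All 10 binders lay over the limit of mean log2 CPM that a call requires. Of the 13433 genes over it, 3314 were called higher and 1755 lower. Khsrp had 131, 133, 134 and 140.1 CPM in Y-WT HSCs, against 189, 222, 211 and 219 CPM in Y-WT MPP3 cells. Its log2 fold change was 0.61 (SE 0.10, edgeR quasi-likelihood adjusted p 0.00184). Tia1 had 148, 161, 171 and 169 CPM in HSCs and 211, 221, 255 and 232 CPM in MPP3 cells, a log2 fold change of 0.47 (SE 0.09, adjusted p 0.00387). Neither gene overlapped between the cell types, which also held for 46.1% of the genes over the limit of mean log2 CPM. At an unadjusted p under 0.05 stood 7 of the 10 binders, against 35.9% of all genes.

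Hnrnpd had 219, 215, 178 and 191 CPM in Y-WT HSCs and 262, 354, 301 and 288 CPM in Y-WT MPP3 cells, a log2 fold change of 0.55 (SE 0.13, edgeR quasi-likelihood adjusted p 0.0156). Elavl1 had 209.9, 199, 167 and 165 CPM in HSCs and 249, 290.5, 250.4 and 235 CPM in MPP3 cells, a log2 fold change of 0.43 (SE 0.13, adjusted p 0.0377). The libraries of both genes separated by cell type, but their calls depended on single libraries. Without Y-WT MPP3 replicate 2, the library of its group with the most Hnrnpd and Elavl1, Khsrp and Tia1 were called and these were not (Hnrnpd adjusted p 0.0502, Elavl1 0.123). The Elavl1 call was also lost without Y-WT HSC replicate 3 (adjusted p 0.0979) and without Y-WT MPP3 replicate 1 (0.0612), with no filter (0.0722) and with upper quartile factors (0.0835), under which Tia1 was not called either (0.0556). Without Y-WT HSC replicate 1, Tial1 was called too (0.37, adjusted p 0.0472).

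Zfp36 and Zfp36l1 had lower means in Y-WT MPP3 cells than in Y-WT HSCs, with log2 fold changes of -0.75 (95% interval -1.37 to -0.13, edgeR quasi-likelihood adjusted p 0.0783) and -0.41 (adjusted p 0.137), and their libraries overlapped. Zfp36 was called lower under 8 of the alternatives, among them DESeq2 (adjusted p 0.0107), the likelihood ratio test (0.0394) and no filter (0.0342), and without Y-WT HSC replicate 2 (-0.87, adjusted p 0.0397). Zfp36l1 was called lower with DESeq2 (0.0420), with upper quartile factors (0.0291) and without Y-WT MPP3 replicate 1 (0.0434). Without Y-WT HSC replicate 1 the log2 fold change of Zfp36 was -0.42 (adjusted p 0.172). Over all genes the median of this comparison was 0.12 with TMM and -0.10 with library totals unscaled. On unscaled totals Khsrp was still called higher (0.39, adjusted p 0.0185), Hnrnpd, Elavl1 and Tia1 were not called (0.33, 0.21 and 0.25), and Zfp36 and Zfp36l1 were called lower (-0.94 and -0.62). Under both scalings the former 4 genes lay above the median of all genes and the latter pair below it. Of all genes called, 65.4% were higher with TMM and 34.3% on unscaled totals.

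With age, Zfp36l2 was the binder that passed. WT HSCs had 628, 574, 580.4 and 616 CPM in young and 762, 816, 818, 799 and 832 CPM in middle-aged mice, with no overlap. The mRNA rose from 599.6 ± 26.7 to 806 ± 27.0 CPM (log2 fold change 0.42, SE 0.04, edgeR quasi-likelihood adjusted p 3.0e-04), in a comparison in which 12.1% of the 22280 genes tested were called (8.38% higher and 3.69% lower) and 21.4% of the genes over the limit of mean log2 CPM did not overlap. Khsrp also did not overlap (131 to 140.1 against 143 to 162 CPM) and had an adjusted p of 0.0365, but its log2 fold change of 0.18 was under the fold limit. At an unadjusted p under 0.05 stood Zfp36l1, Zfp36l2, Hnrnpd and Khsrp, against 37.7% of all genes.

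Zfp36 itself did not pass with age (log2 fold change 0.07, 95% interval -0.37 to 0.52, edgeR quasi-likelihood, and 0.34 without Y-WT HSC replicate 1). Hnrnpd had a log2 fold change of -0.24 (edgeR quasi-likelihood adjusted p 0.0632) and Zfp36l1 of -0.33 (adjusted p 0.0837). On unscaled totals both were called lower (adjusted p 0.0241 and 0.0365). Each was also called with a single library left out, Hnrnpd without M-WT HSC replicate 3 (-0.30, adjusted p 0.0192) and Zfp36l1 without Y-WT HSC replicate 2 (-0.41, adjusted p 0.0494).

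To set levels of different genes side by side, CPM were divided by the length of the merged exons. In Y-WT HSCs Zfp36l2 stood at 169.9 ± 7.56 CPM per kb, 5.46 times the next gene, Khsrp, at 31.1 ± 0.930 CPM per kb. Hnrnpd (27.3), Elavl1 (17.9), Zfp36 (13.7), Tia1 (10.3), Tial1 (7.53), Zfp36l1 (7.497), Rc3h1 (3.15) and Zc3h12a (2.77) followed. The neighbours Elavl1 and Zfp36, Zfp36 and Tia1, Tial1 and Zfp36l1, and Rc3h1 and Zc3h12a overlapped in their libraries. Zfp36 ranked 5 in Y-WT and M-WT HSCs and 3 in their TTPΔARE counterparts, and 7 in Y-WT and 4 in Y-TTPΔARE MPP3 cells. By mean transcript length in place of merged exons, Zfp36 ranked 7 in Y-WT and 6 in Y-TTPΔARE HSCs, and 8 and 7 in MPP3 cells, so the order depends on the length used.

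The genes that carry out decay after binding were followed through 4 lists: other ARE and related RNA binders (20 genes), deadenylation (18), decapping and 5′ decay (18) and the exosome with its cofactors (17). In young HSCs none of the 68 genes over the limit of mean log2 CPM was called by edgeR's quasi-likelihood test (7 at an unadjusted p under 0.05, 0 called by the likelihood ratio test and 1 by DESeq2). The list medians lay between 0.04 and 0.05 on the log2 scale, beside 0.03 over all genes. In middle-aged HSCs 1 of the 68 genes was called, against 1.41% of all genes tested (298 of the 13413 over the limit). The count lies near that share, so it is no result about the lists. DESeq2 called 3 and the likelihood ratio test 0. There the list medians lay between -0.09 and -0.04, beside -0.03 over all genes. Cnot6, a deadenylase of the CCR4-NOT complex, had 166 ± 5.11 CPM in M-WT and 142 ± 8.95 CPM in M-TTPΔARE (log2 fold change -0.27, SE 0.05, adjusted p 0.0297). The call was lost without M-WT replicate 5 (adjusted p 0.0504), M-TTPΔARE replicate 1 (0.115) or replicate 3 (0.0922), with the likelihood ratio test (0.264), and with upper quartile factors or unscaled totals, under which the fold change was below the limit. It was lost too with all 24 libraries in 1 fit (0.399) and with a block for replicate number (0.142).

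In MPP3 cells 2 of the 68 genes were called, both as higher in TTPΔARE. Of all genes tested 1.71% were called in either direction (326 of the 12856 over the limit), and 92.0% of these were higher. The count lies near that share, so it is no result about the lists. The 2 genes, Btg1 and Btg2, encode antiproliferative proteins that bind the CCR4-NOT complex. With all 24 libraries in 1 fit 8 genes of the lists were called, among them Btg1 and, as lower, Cnot6 (-0.27, adjusted p 0.0290). Btg1 went from 40.4 ± 5.20 to 72.5 ± 15.4 CPM (log2 fold change 0.80, SE 0.12, edgeR quasi-likelihood adjusted p 0.00668). Btg2 went from 49.5 ± 11.1 to 88.1 ± 15.0 CPM (0.80, SE 0.17, adjusted p 0.0411). The Btg1 call held without any single library (adjusted p 0.00649 to 0.0436) but was lost with a block for replicate number (0.0522). That of Btg2 was lost without any one of the 8 libraries (0.0592 to 0.152), on unscaled totals (0.0700) and with all 24 libraries in 1 fit (0.0538). Without Y-TTPΔARE MPP3 replicate 4, Btg1 stood at 0.72 (adjusted p 0.0111) and Btg2 at 0.82 (0.0605). The medians of the 4 lists lay between -0.08 and 0.09, beside -0.00244 over all genes.

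Btg1 was also among the 5 genes whose pattern was most like that of Zfp36. Over the 24 libraries and 13463 genes, Pearson's r of log2 CPM with Zfp36 was 0.886 for Rab19, 0.885 for Btg1, 0.873 for Arl8a, 0.860 for Slamf8 and 0.847 for Ctsh. These libraries share the genotype of their group, and the r of deviations from the group means was 0.850, 0.745, 0.510, 0.717 and 0.892 in the same order. In HSCs Btg1 stood at 54.0 ± 8.59 CPM in Y-WT and 78.1 ± 8.52 CPM in Y-TTPΔARE, and at 46.5 ± 4.60 CPM in M-WT and 61.9 ± 7.69 CPM in M-TTPΔARE. There edgeR's quasi-likelihood test did not call it (adjusted p 0.297 and 0.0999), whereas DESeq2 did (0.0159 and 0.0109). The 9 other binders had r between -0.45 (Khsrp) and 0.39 (Zfp36l1) with Zfp36. Their r of deviations from the group means lay between -0.34 (Khsrp) and 0.72 (Zfp36l1), with 0.53 for Zfp36l2 and 0.51 for Rc3h1.

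Between the cell types of young WT mice many decay genes passed. Of the exosome list 13 of 16 genes over the limit were called higher in MPP3 cells, where 14.5% of all genes tested were (3314 of the 13433 over the limit), with a median log2 fold change of 0.50, beside 0.12 over all genes. Exosc9, a core subunit, had 1.04 (SE 0.09, edgeR quasi-likelihood adjusted p 7.4e-05), Ttc37, of the cytoplasmic SKI complex, 0.63 (adjusted p 0.00172) and Exosc5 0.59 (0.00378). Of the deadenylation list 10 of 18 were called higher (median 0.35), led by Cnot1, the scaffold of CCR4-NOT (1.07, adjusted p 5.8e-04), Pan3 (0.50, 0.00263) and Cnot6 (0.56, 0.00672). Btg1 was the single gene called lower (-0.47, adjusted p 0.0358).

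Of the decapping list 9 of 18 passed as higher (median log2 fold change 0.34), among them Lsm3 (0.58, edgeR quasi-likelihood adjusted p 0.00751), Lsm6 (0.66, 0.00758) and Patl1 (0.45, 0.0112). Of the other binders 6 of 16 passed as higher (median 0.22), led by Hnrnpab (0.78, adjusted p 0.00252), Fubp1 (0.45, 0.00498) and Hnrnpa1 (0.68, 0.0114). Beside the counts of both lists stand the 3314 of 13433 genes over the limit that were called higher. The counts depend on the scaling and on single libraries. The 4 lists held 39 calls here, against 21 on unscaled totals, 22 without Y-WT MPP3 replicate 2 and 52 without Y-WT HSC replicate 1.

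With age in WT HSCs, 8 of the 68 genes passed as higher in middle-aged mice by edgeR's quasi-likelihood test, near the 8.38% of all genes tested and the 1868 of 13648 over the limit that were called higher, so the count is no result about the lists. Among them were Pum2 (0.30, adjusted p 0.00855) and Zc3h12b (0.52, 0.0123) of the other binders, the scaffold Cnot1 (0.62, 0.00281), and the decapping factors Edc3 (0.32, 0.00437), Edc4 (0.33, 0.00513) and Dcp1a (0.38, 0.0182) with the exonuclease Xrn1 (0.34, 0.0294). Of the exosome list 5 of 16 reached an unadjusted p under 0.05, against 37.7% of all genes tested. The medians of the lists lay between -0.02 and 0.07, beside 0.06 over all genes. The count of list genes called ranged from 5 (all 24 libraries in 1 fit) to 15 (no filter) over the alternatives without a replicate block, and was 12 without Y-WT HSC replicate 1 or M-WT HSC replicate 2.

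**Figure D5:**
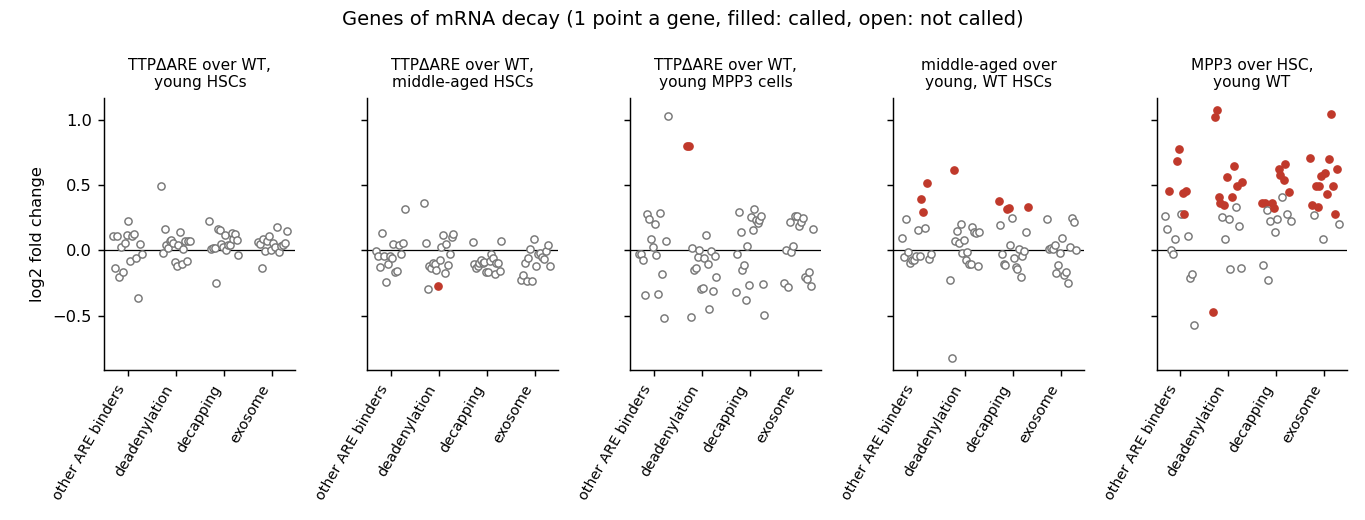
Log2 fold change (vertical axis) of the genes of 4 mRNA decay lists (horizontal axis) over the limit of mean log2 CPM in 5 comparisons, 1 point a gene, red where the gene was called. Called genes number 0, 1 and 2 in the genotype comparisons, 8 with age and 39 between the cell types.

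Some markers of other cells moved with genotype beside these results. The summed CPM of 6 erythroid genes was 18.7 (15.4 to 21.4) in Y-WT and 65.9 (44.8 to 89.3) in Y-TTPΔARE HSCs, and 20.4 (12.8 to 31.1) in Y-WT and 90.9 (56.1 to 119) in Y-TTPΔARE MPP3 cells, whereas in middle-aged HSCs the ranges overlapped (16.0 to 90.9 and 54.4 to 64.3). The 6 T and NK cell genes summed to 82.6 (76.1 to 92.0) in Y-WT and 153 (109.9 to 194) in Y-TTPΔARE HSCs, and the 5 megakaryocyte genes to 149 (139 to 154) in Y-WT and 91.1 (82.3 to 96.4) in Y-TTPΔARE MPP3 cells and to 184 (163 to 199) in M-WT and 132 (115 to 141) in M-TTPΔARE HSCs. Mpo stood at 658 ± 398 CPM in Y-WT and 1412 ± 453 CPM in Y-TTPΔARE MPP3 cells, but its libraries overlapped (264 to 1182 and 763 to 1757 CPM). In these cells the sum of the 8 MPP3 marker genes overlapped too (2377 to 3781 and 2919 to 4383 CPM). The 10 HSC marker genes also separated in HSCs (3289 to 3717 CPM in Y-WT and 3840.1 to 3929.8 CPM in Y-TTPΔARE, and 3983 to 4755 CPM in M-WT and 4832 to 5256 CPM in M-TTPΔARE), and the 8 MPP3 marker genes in middle-aged HSCs (213 to 262 CPM in M-WT and 158 to 185 CPM in M-TTPΔARE). B cell genes overlapped between genotypes in all 3 settings. Neutrophil genes separated in middle-aged HSCs (6.02 to 13.9 in WT against 3.14 to 4.50 CPM in TTPΔARE) and endothelial genes in MPP3 cells (61.0 to 73.3 against 36.8 to 58.6 CPM). The part of these markers in the levels of the binders was not tested.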

How the data were processed

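Bulk mRNA-seq of 24 libraries was used. Per the labels and the study's methods, adapters were removed with Trim Galore! and Cutadapt, reads were aligned to mm10 with STAR and counted with featureCounts by the authors. Strand and multimapping settings were not stated, and the labels and the study name different library kits. The deposited values are raw counts per gene symbol.

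Counts were analysed with R 4.3.3 and edgeR 4.0.16 (filterByExpr at 10 counts and 15 in total, TMM, quasi-likelihood F test, Benjamini-Hochberg adjustment over all genes tested). Each comparison was fitted on its own libraries, so its TMM factors differ slightly from those behind the printed CPM. The SE is the log2 fold change divided by the square root of F. The labels do not tie a library to a mouse, so p-values measure the spread between these libraries. Alternatives were DESeq2 1.42.0, the likelihood ratio test, other scalings, no filter, a replicate block, 1 fit of all libraries and each library left out. Unscaled totals were added after seeing the data. The code was tested on simulated counts.

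The study used 3 of the 4 Y-TTPΔARE MPP3 libraries, whereas all 4 are used here. UTRs are those of 1 coding transcript a gene (principal isoform, then longest 3′ UTR) in a GENCODE annotation of GRCm38. Members and lists were chosen with earlier results of these data known. Decay genes were named by adjusted p (up to 3 a list, direction and comparison, with Xrn1 and the Btg genes in HSCs named after their values were seen), and 5 genes by their r with Zfp36, among genes over the limit of mean log2 CPM and without immunoglobulin and T-cell receptor segments. Values of 1 decay gene so named are left out.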

Additional observations from a re-analysis of the deposited data

Results flagged for a closer look

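In groups of at least 4 libraries, each member's CPM and the library totals were tested for a value far from the others. Of the 55 sets so tested 3 held one by Dixon's ratio, all of a member's CPM, and chance flags about 1 in 20 sets. M-TTPΔARE HSCs, with 3 libraries, were not tested. Hnrnpd stood at 202 CPM in M-WT HSC replicate 3, against 159 to 168 CPM in the other 4 libraries. In Y-TTPΔARE MPP3 replicate 4, Khsrp was the lowest (151 CPM, against 178 to 180.4 CPM) and Tial1 the highest (106 CPM, against 68.1 to 72.7 CPM). That library also had the lowest TMM factor (0.731) and the highest sum of T and NK cell genes among the MPP3 libraries (636 CPM). Their part in these values was not tested.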

How the results depend on the processing

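The call of Zfp36 held under every alternative in middle-aged HSCs and MPP3 cells, and that of Zfp36l2 with age likewise. In young HSCs the count of binders called went from 0 to 1 (Zfp36) with the likelihood ratio test, DESeq2 and no filter, and was 0 to 1 with a library left out (1 without Y-WT HSC replicate 1). In MPP3 cells it was 2 with all 24 libraries in 1 fit (Zfp36 and Khsrp). With age it went from 1 to 2 with DESeq2, no filter or the adjusted p alone, to 3 with upper quartile factors or unscaled totals, and was 1 to 2 with a library left out (2 without Y-WT HSC replicate 2 or M-WT HSC replicate 3). Between cell types it was 4, then 3 to 6 under the other alternatives (3 on unscaled totals, 6 with DESeq2) and 2 to 5 with a library left out. The interaction with age gave 1 with DESeq2 (Zfp36l2) and otherwise 0. The causes were not tested.

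All reversed values were of binders that did not pass. With upper quartile factors the reversed log2 fold changes were Elavl1 -0.0050, Khsrp -0.019 and Tia1 -0.016 (young HSC genotype), Zfp36l1 0.0043 (middle-aged HSC genotype), Zfp36 -0.0041, Elavl1 -0.051, Tia1 -0.031 and Tial1 -0.045 (age), Zfp36l2 -0.11 and Rc3h1 -0.11 (cell type), Zfp36 0.073 and Hnrnpd 0.074 (age by genotype) and Rc3h1 0.0090 (cell type by genotype). With no filter the reversed log2 fold changes were Rc3h1 0.051 (young HSC genotype) and Zc3h12a 0.049 (age). With all 24 libraries in 1 fit the reversed log2 fold changes were Rc3h1 0.020 (young HSC genotype), Zfp36l1 0.017 (middle-aged HSC genotype) and Zfp36 0.023 and Hnrnpd 0.0088 (age by genotype). On unscaled totals the reversed log2 fold changes were Elavl1 -0.014, Khsrp -0.029 and Tia1 -0.025 (young HSC genotype), Zfp36 -0.00063, Elavl1 -0.045, Tia1 -0.025 and Tial1 -0.038 (age), Zfp36l2 -0.15 and Rc3h1 -0.15 (cell type) and Zfp36 0.071 and Hnrnpd 0.071 (age by genotype). With DESeq2 the reversed log2 fold changes were Zfp36 0.016 and Hnrnpd 0.0074 (age by genotype). With RLE factors the reversed log2 fold changes were Zfp36 0.016 and Hnrnpd 0.0072 (age by genotype). With the replicate block the reversed log2 fold change was Zfp36 0.069 (age by genotype). With a library left out, ranges that crossed 0 were Elavl1 -0.021 to 0.13 (age), Hnrnpd -0.17 to 0.043 (age by genotype), Rc3h1 -0.23 to 0.11 (cell type by genotype), Rc3h1 -0.0072 to 0.14 (cell type), Rc3h1 -0.069 to 0.079 (young HSC genotype), Rc3h1 -0.15 to 0.059 (MPP3 genotype), Tial1 -0.030 to 0.12 (age), Tial1 -0.081 to 0.17 (cell type by genotype), Zc3h12a -0.11 to 0.031 (age), Zc3h12a -0.26 to 0.13 (cell type by genotype), Zc3h12a -0.0093 to 0.22 (middle-aged HSC genotype), Zc3h12a -0.24 to 0.068 (young HSC genotype), Zfp36 -0.35 to 0.11 (age by genotype), Zfp36 -0.072 to 0.34 (age), Zfp36l1 -0.10 to 0.15 (age by genotype) and Zfp36l1 -0.20 to 0.018 (young HSC genotype).

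Genes called numbered 6 in young HSCs (146 with the likelihood ratio test, 304 with DESeq2, 73 with no filter, 18 in 1 fit, 0 to 12 with a library left out, most without Y-WT HSC replicate 1), 298 in middle-aged HSCs (835 with DESeq2, 842 with no filter, 53 in 1 fit, 68 to 299 with a library left out, least without M-TTPΔARE replicate 3) and 326 in MPP3 cells (540 with the likelihood ratio test, 766 with DESeq2, 1244 in 1 fit, 185 to 347 with a library left out, least without Y-TTPΔARE replicate 1). With age they numbered 2691 (4453 by the adjusted p alone). The interaction with age gave 6 (27 with the likelihood ratio test, 157 with DESeq2, 16 with no filter, 2 in 1 fit, 0 to 56 with a library left out) and that with cell type 113 (202 with the likelihood ratio test, 331 with DESeq2, 261 in 1 fit, 66 to 132 with a library left out). Of genes called, the percentage higher was 49.7 in middle-aged HSCs (64.1 with upper quartile factors, 62.9 on unscaled totals), 69.4 with age (47.0 and 48.4) and 65.4 between cell types (41.0 and 34.3).

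Replicate numbers were taken as no pairing in the main fits. Deviations of same-numbered libraries correlated over 0.1 in 13 of 64 pairs, which repeat some group pairs over comparisons and include pairs across ages. Between Y-TTPΔARE HSCs and Y-TTPΔARE MPP3 cells every number did so (r 0.167 to 0.279), each matching its own number best. Between Y-WT HSCs and Y-WT MPP3 cells r was 0.034, 0.160, 0.244 and 0.137 for replicates 1 to 4. The main fits that hold both cell types treat these libraries as independent, and whether same-numbered ones share a mouse was not tested. With the replicate block the genotype comparisons called 0, 1 and 1 binders, age 1 and cell type 6, and 5, 108, 243, 1580 and 4948 genes. Under the block Btg1 in MPP3 cells (adjusted p 0.0522) and Cnot6 in middle-aged HSCs (0.142) were not called, and the decay lists held 4 calls with age. Every member had at least 203 counts a library, and the spread between libraries limits the precision.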
